A study of Drosophila melanogaster with 12 samples.

Results

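The hemocyte genes described here are Hml, Pxn, He, eater, NimC1, srp and crq, 7 of the 17753 genes in the table, chosen by symbol because they are used as markers of plasmatocytes, and serve here as a measure of blood cells in sorted wing disc pools. Hemocytes are the blood cells of the fly. Most larval hemocytes are plasmatocytes, macrophage-like cells that engulf bacteria and dying cells and secrete matrix proteins, while crystal cells carry prophenoloxidases for melanization and lamellocytes form after wasp infestation. Some hemocytes sit on the surface of imaginal discs, and they are known to gather on damaged discs.

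RNA was sequenced from cells that were dissociated from wing discs of Drosophila larvae and separated by fluorescence-activated cell sorting. All larvae came from a cross of 30A>G-trace/SM5 females to w1118 males and carried G-trace, in which RFP reports current 30A-GAL4 activity and GFP marks its lineage. POS cells were RFP+GFP+, that is, cells of the hinge domain in which 30A-GAL4 is active, and NEG cells were RFP-GFP-, every other disc cell with neither color. Each population was taken without irradiation (-IR), 24 h after X-ray irradiation (IR+24h) and 48 h after it (IR+48h), with 2 libraries in each of the 6 groups. The study's methods place the -IR discs at 24 h after mock irradiation, and say that IR+48h discs came from larvae irradiated at different ages, so that irradiation and developmental age cannot be told apart at IR+48h. They also describe each replicate as a pool of discs from several crosses, dissociations and sorts, and place the 30A-GAL4 insertion in an intron of ds, whose own expression is broader than that of the driver. Cells that kept GFP but lost RFP are in neither pool.

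Total counts ran between 4211088 and 19940040 per library, and NEG -IR replicate 1 was the shallowest. The hinge genes zfh2, Sox15 and ds were higher in every POS library than in any NEG library, with zfh2 between 1488 and 3351 CPM in POS libraries and between 198.1 and 296.4 CPM in NEG libraries. The wing disc genes vg, nub and ap were present in all 12 libraries. Levels are given in CPM, counts per 1000000 counts of a library after scaling with TMM factors from edgeR.

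The 7 genes have different tasks in the hemocyte. Positions are those of the BDGP6.54 annotation. Hml (FBgn0029167, chromosome 3L, 13846054 to 13860001) encodes Hemolectin, a large clotting protein of the hemolymph. Pxn (FBgn0011828, 3L, 2601455 to 2630064) encodes peroxidasin, a heme peroxidase that crosslinks collagen IV in basement membranes. He (FBgn0028430, 2L, 13972096 to 13972947) encodes Hemese, a glycoprotein of the hemocyte surface. NimC1 (FBgn0259896, 2L, 13973158 to 13976769) encodes the P1 antigen of plasmatocytes, a phagocytic receptor of the Nimrod family, and lies next to He with 211 bases between them. The eater gene (FBgn0243514, 3R, 27095867 to 27099679) encodes a related receptor for bacteria. The srp gene (FBgn0003507, 3R, 15986152 to 16004085) encodes Serpent, a GATA factor needed for blood and fat body. The crq gene (FBgn0015924, 2L, 448254 to 453024) encodes Croquemort, a CD36-family receptor for apoptotic cells. All 7 are protein coding.

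Whether POS and NEG pools held different amounts of hemocyte RNA was asked first. Hml, Pxn, He, eater and NimC1 were lower in POS than in NEG over the mean of the 3 time points, by 11.8-fold for NimC1 and by more for the other 4. The remaining genes, srp and crq, did not pass the test. The gate bears on this comparison, because a blood cell with neither color is sorted into NEG whatever its place on the disc. A lower level in POS therefore cannot show where on the disc hemocytes sat. Whether any hemocytes carried the driver was not tested. The same gate applies to the crystal cell and muscle precursor genes given further on. In sorted pools such as these, fewer hemocytes and less RNA per hemocyte cannot be told apart either.

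Hml had 0.408 and 1.05 CPM in POS -IR, against 30.7 and 63.5 CPM in NEG -IR. At IR+24h it had 2.15 and 1.62 CPM in POS, against 166.8 and 49.8 CPM in NEG. At IR+48h it had 0.632 and 2.17 CPM in POS, against 200.4 and 198.9 CPM in NEG. Every POS library was below every NEG library, and the highest POS level, at IR+48h, was still far under the lowest NEG level, in the shallow -IR library. Over the mean of the time points, the log2 fold change (POS relative to NEG) was -6.33 (SE 0.408, adjusted p = 5.32e-06).

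Pxn followed with 0.653 and 0.124 CPM in POS -IR, against 19.6 and 47.4 CPM in NEG -IR. It had 1.48 and 0.065 CPM in POS at IR+24h, against 56.7 and 15.8 CPM in NEG. It had 5.10 and 5.16 CPM in POS at IR+48h, against 61.4 and 63.6 CPM in NEG. No POS library reached a NEG library, but the POS libraries at IR+48h stood above the other POS libraries. Over the mean of the time points the log2 fold change of Pxn was -5.24 (SE 0.519, adjusted p = 1.06e-04).

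He was at or near the limit of counting in POS. It had 0 and 5 counts in POS -IR, 1 count in each POS library at IR+24h and 0 counts in both POS libraries at IR+48h, where 3 counts would have been 0.146 and 0.191 CPM. In NEG, He had 1.69 and 4.65 CPM without irradiation, 6.73 and 3.39 CPM at IR+24h and 5.73 and 5.41 CPM at IR+48h. The groups did not overlap, and against a floor of 3 counts per POS library He was at least 33.8-fold lower in POS than in NEG at IR+48h. The fitted log2 fold change over the mean of the time points, -6.52 (SE 0.691, adjusted p = 3.02e-04), rests in part on those zeros and is no bound.

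The bacterial receptor gene eater had 0.408 and 0.186 CPM in POS -IR, against 1.94 and 9.81 CPM in NEG -IR. It had 0.740 and 0.065 CPM in POS at IR+24h, against 5.36 and 1.80 CPM in NEG, and 0.243 and 0 CPM in POS at IR+48h, against 4.70 and 3.58 CPM in NEG. The groups did not overlap, although the NEG -IR libraries differed from each other more than those at IR+48h did. The log2 fold change was -4.13 (SE 0.699, adjusted p = 0.00418).

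NimC1 had 0.327 and 1.05 CPM in POS -IR, against 4.11 and 4.36 CPM in NEG -IR. It had 0.592 and 0 CPM in POS at IR+24h, against 4.56 and 0.899 CPM in NEG. It had 0.243 and 0.191 CPM in POS at IR+48h, against 5.35 and 8.12 CPM in NEG. Within each time point every POS library was below every NEG library, but NEG IR+24h replicate 2 was below the higher POS -IR library, so the 6 libraries of each kind overlapped. The log2 fold change of NimC1 was -3.56 (SE 0.642, adjusted p = 0.00623).

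The blood GATA factor srp behaved differently. It had 13.0 and 6.89 CPM in POS -IR, against 4.84 and 13.4 CPM in NEG -IR. It had 3.41 and 3.90 CPM in POS at IR+24h, against 7.29 and 5.25 CPM in NEG, and 2.96 and 5.16 CPM in POS at IR+48h, against 11.0 and 13.3 CPM in NEG. The groups overlapped fully without irradiation and were apart at both later times. Over the mean of the time points srp had a log2 fold change of -0.76 (SE 0.295, 95% interval -1.40 to -0.11, adjusted p = 0.155) and was not called. Without the shallow library, NEG -IR replicate 1, it was called, at -0.93 with an adjusted p of 0.0381.

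The apoptotic cell receptor gene crq was close to level between the pools. It had 18.9 and 9.86 CPM in POS -IR, against 32.4 and 11.5 CPM in NEG -IR. It had 12.7 and 12.2 CPM in POS at IR+24h, against 16.7 and 17.8 CPM in NEG, and 11.7 and 13.2 CPM in POS at IR+48h, against 13.35 and 13.39 CPM in NEG. The pools overlapped without irradiation, where the 2 NEG libraries were farther apart than the 2 POS libraries. At IR+24h and IR+48h every POS library was below every NEG library, by a small margin at IR+48h. The log2 fold change of crq was -0.38 (SE 0.250, 95% interval -0.93 to 0.16, adjusted p = 0.428). In the annotation, 15.7% of the exon length of crq lies opposite ex, a Hippo pathway gene that had 652.0 to 825.4 CPM in POS and 501.5 to 819.9 CPM in NEG. Whether counting used strand is not given in the sources used here, and the part of the crq counts that came from ex was not tested.

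**Figure D1:**
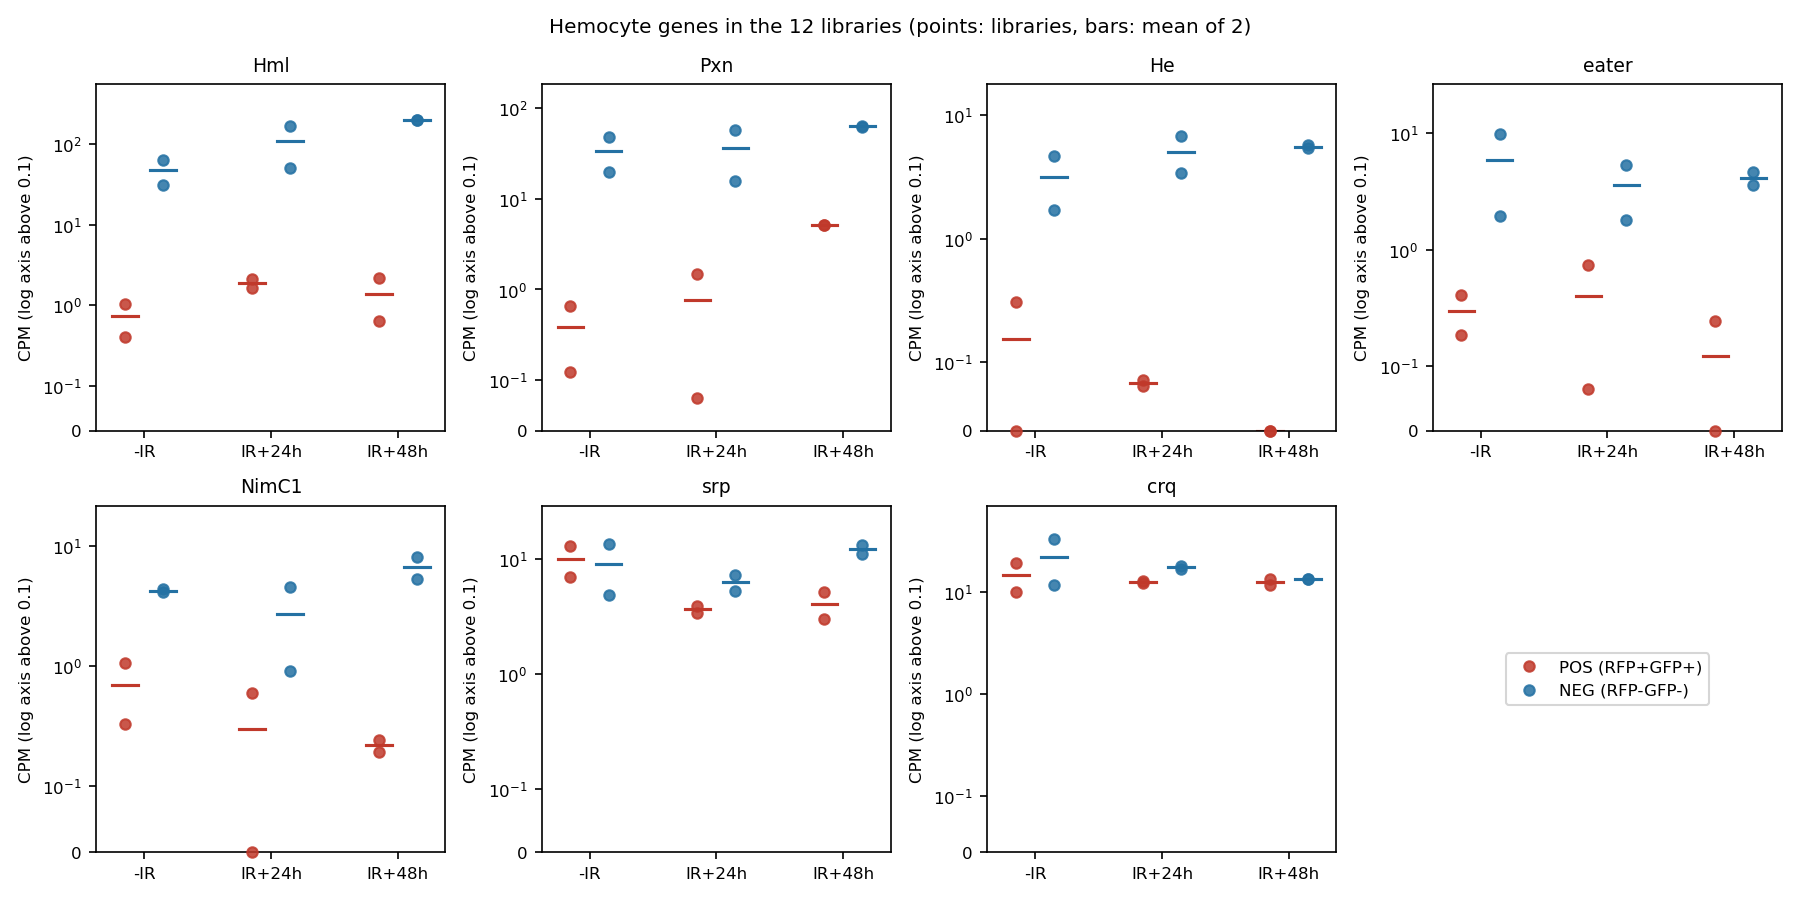
CPM (vertical axis, logarithmic above 0.1 and linear below) of each hemocyte gene by time point, with POS libraries in red at the left and NEG libraries in blue at the right of each pair. Points are libraries and bars the mean of 2. Hml, Pxn, He and eater are lower in all 6 POS libraries than in any NEG library, while crq is at 9.86 to 18.9 CPM in POS and 11.5 to 32.4 CPM in NEG.

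In all, 5 of the 7 genes were called lower and 0 higher by edgeR over the mean of the 3 time points, where 4.46% of the 10617 tested genes were called lower. In 4 of the 7, Hml, Pxn, He and eater, all 6 POS libraries were below all 6 NEG libraries, which held for 2.37% of the tested genes. All 7 genes passed the filter on low counts, which took about 0.669 CPM in 2 libraries. NimC1 and eater reached that level in 1 POS library and He in 0, so these passed through their NEG counts. Genes that pass in this way could hardly be called higher in POS, so their calls and separation are a description only. Hml and Pxn reached it in 4 POS libraries and srp and crq in 6. Of the genes that also passed by their POS counts, Hml and Pxn were called lower and srp and crq were not. The median log2 fold change of the 7 genes was -4.13, and that of all tested genes was 0.003.

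Each time point alone has only 2 libraries a side, and fewer genes passed there. At -IR, Hml (log2 fold change -5.95, SE 0.735, adjusted p = 0.00158) and Pxn (-6.52, SE 0.998, adjusted p = 0.00638) were lower in POS, that is 2 of 7 genes, beside 1.76% of all tested genes called lower. At IR+24h, Hml (-5.84, SE 0.678, adjusted p = 0.00295), Pxn (-5.58, SE 0.912, adjusted p = 0.0171) and He (-6.02, SE 1.112, adjusted p = 0.0491) were lower, 3 of 7 genes beside 0.301%. Hml was the gene called at every time point. At IR+48h, Hml (-7.21, SE 0.714, adjusted p = 8.68e-04) and He (-9.32, SE 1.430, adjusted p = 0.0277) were lower, 2 of 7 genes beside 0.160%. The fitted value of He rests on 0 POS counts and is no bound, and its call was lost without any of the 4 IR+48h libraries (adjusted p 0.0837 to 0.211). Pxn at IR+48h had a log2 fold change of -3.60 (SE 0.766, adjusted p = 0.101) and was called without any 1 of the 4 -IR libraries (adjusted p 0.0306 to 0.0427). Hml, Pxn, He, eater and NimC1 were lower in all 4 pairs of a POS and a NEG library at each time point, whichever of them passed. The share of all tested genes with that pattern was not computed, so this is a description only.

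POS and NEG libraries of the same number deviated together at -IR (r = 0.522 over genes), and weakly at IR+24h (0.145) and IR+48h (0.190). No label pairs them. A model that blocks on the replicate number within each time point, chosen after the data were seen, called more. With that block, Hml, Pxn, He, eater and NimC1 were all lower in POS at -IR, 5 of 7 genes beside 6.73% of all tested genes. At IR+24h the block gave 4 of 7 genes beside 1.81%, with eater left out at an adjusted p of 0.0563, and at IR+48h it gave 5 of 7 genes beside 1.52%. Over the mean of the time points it called Hml, Pxn, He, eater and NimC1 at 9.98% of all genes called lower, and not srp (adjusted p = 0.0617) or crq (adjusted p = 0.0967). In the fit without a block, the calls at IR+24h differed in how far they rested on single libraries. He lost its call without any of the 4 IR+24h libraries (adjusted p 0.0804 to 0.541) and without either NEG IR+48h library (0.0892 and 0.0922). Pxn lost its call without NEG IR+24h replicate 1 (0.139) or POS IR+24h replicate 2 (0.156), and Hml without POS IR+24h replicate 2 alone (0.0689).

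**Figure D2:**
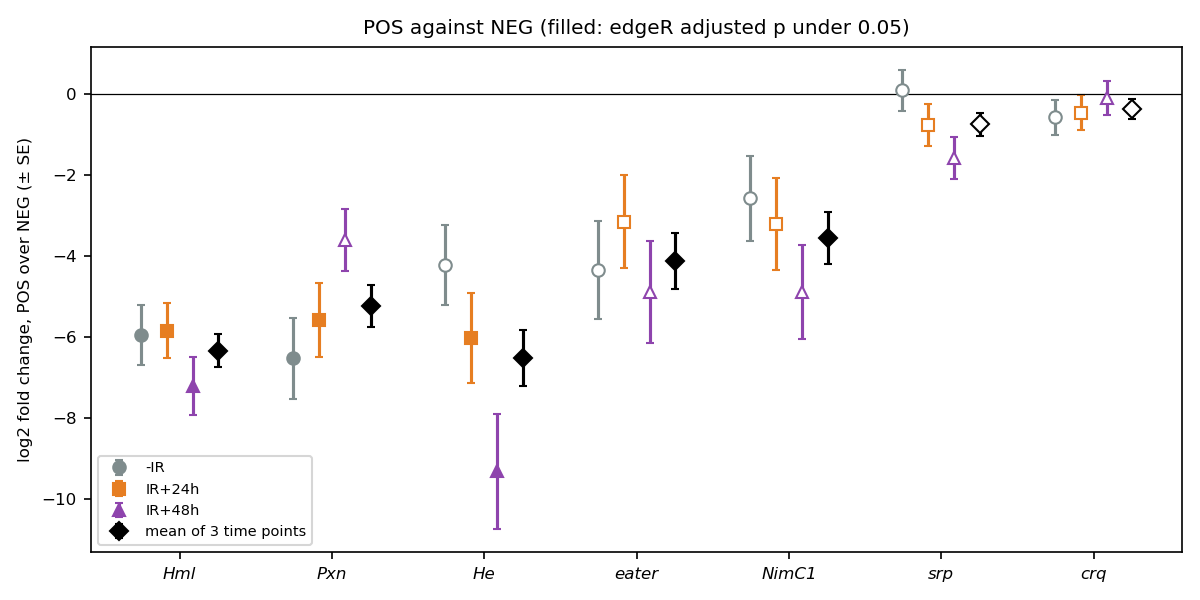
Log2 fold change of POS over NEG for each hemocyte gene (vertical axis, bars are 1 SE of the edgeR fit) at -IR, IR+24h and IR+48h and over the mean of the 3. Filled symbols passed an adjusted p of 0.05. Hml, Pxn, He, eater and NimC1 sit between -3.56 and -6.52 over the mean, and srp and crq at -0.76 and -0.38.

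The remaining POS signal was small for the genes that differed. From the counts pooled over each pair of libraries, Hml in POS was 1.39% of its NEG level at -IR (exact 95% interval for counting error only, 0.865 to 2.11%), 1.80% at IR+24h (1.35 to 2.35%) and 0.649% at IR+48h (0.476 to 0.864%). Pxn in POS was 0.861% of NEG at -IR (0.411 to 1.59%), 2.09% at IR+24h (1.29 to 3.22%) and 8.23% at IR+48h (7.04 to 9.56%). At the first 2 time points the Hml and Pxn intervals overlap, and at IR+48h they are apart. Leaving out 1 library at a time, Hml at IR+48h was 0.316 to 1.09% of NEG and Pxn 8.07 to 8.36%. The earlier values moved more, over 0.730 to 2.52% for Hml and 0.303 to 1.80% for Pxn at -IR, and over 1.12 to 3.75% for Hml and 0.187 to 4.61% for Pxn at IR+24h, where Pxn had 20 and 1 POS counts. The phagocytic receptor gene NimC1 in POS was 17.2%, 10.7% and 3.35% of NEG in time order, on 21, 8 and 8 POS counts. Single libraries carried the first 2 of these values. At -IR, NimC1 was 24.5% without POS replicate 1 and 7.59% without POS replicate 2. At IR+24h all 8 POS counts were in replicate 1, and NimC1 was 30.8% without NEG replicate 1 and 6.06% without NEG replicate 2.

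The ratio of Pxn to Hml was also read within each library, where depth and scaling cancel. POS IR+48h had 8.08 Pxn counts per Hml count in replicate 1 (exact 95% interval 4.52 to 15.7, 105 and 13 counts) and 2.38 in replicate 2 (1.58 to 3.67, 81 and 34 counts), against 0.306 and 0.320 in NEG IR+48h. Without regard to gene length, in these POS libraries Pxn counts outnumbered Hml counts, and in every NEG library Hml counts outnumbered Pxn counts. In the other POS libraries the ratio scattered, with 1.60 and 0.118 at -IR and 0.690 and 0.040 at IR+24h, on 1 to 20 Pxn counts. NEG had 0.638 and 0.746 at -IR and 0.340 and 0.316 at IR+24h.

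Between irradiated and unirradiated POS cells, Pxn had a log2 fold change of 3.80 at IR+48h (SE 0.996, higher in 4 of 4 library pairs), with an adjusted p of 0.0846, which did not pass. Without NEG -IR replicate 1 or replicate 2 it passed (adjusted p = 0.0472 and 0.0471). DESeq2 gave Pxn an adjusted p of 0.0463 and limma voom 0.300. The difference between the IR+48h changes of Pxn in POS and in NEG was 2.92 (SE 1.231, unadjusted p = 0.0359, adjusted p near 1). Muscle precursor genes also stood higher in the POS IR+48h libraries, as given further on, and their part in the Pxn counts was not tested.

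**Figure D3:**
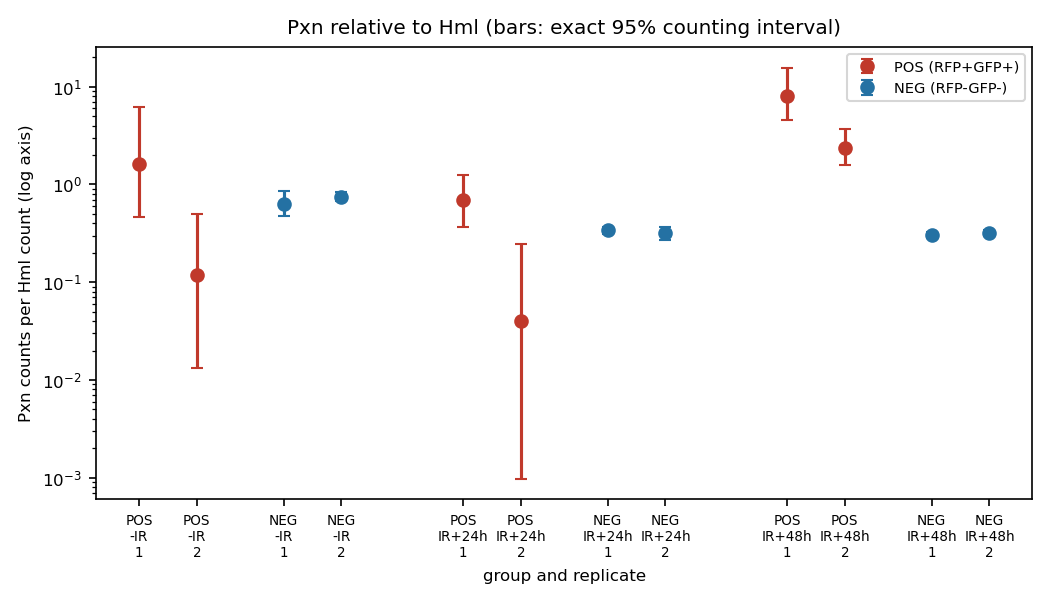
Pxn counts per Hml count (logarithmic vertical axis) in each of the 12 libraries, POS in red left of NEG in blue within each time point. Bars are exact 95% intervals for counting error. The POS IR+48h libraries are at 8.08 and 2.38, and the NEG libraries lie between 0.306 and 0.746.

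Irradiated cells were then compared with unirradiated cells within each pool. None of the 7 genes passed the edgeR test in POS at IR+24h or IR+48h, or in NEG at either time. Of all tested genes, 5.33% and 1.63% passed in POS at IR+24h and IR+48h, and 2.16% and 0.113% in NEG. At an unadjusted p under 0.05 there were 1 and 3 of the 7 genes in POS at IR+24h and IR+48h, and 1 and 1 in NEG. Of the 10617 tested genes, 1946 and 1537 had such an unadjusted p in POS at IR+24h and IR+48h, and 1383 and 1117 in NEG. DESeq2 called 1 gene, Pxn, in POS at IR+48h and 0 in the other comparisons, and limma voom called 0 in all 4.

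In NEG, Hml had the largest of the 7 changes at IR+48h by log2 fold change and did not pass. At 199.6 ± 1.03 CPM at IR+48h and 47.1 ± 23.2 CPM at -IR (SD, n = 2 each), its log2 fold change was 2.06 (SE 0.540, 95% interval 0.88 to 3.24), higher in 4 of 4 library pairs. The unadjusted p was 0.00258 and the adjusted p 0.239. At IR+24h the NEG libraries were far apart, at 166.8 and 49.8 CPM, and the lower of them overlapped the -IR libraries. NEG IR+24h replicate 2 was also below replicate 1 for Pxn, He, eater, NimC1 and srp, and for the muscle precursor genes twi, zfh1, Him, htl and stumps.

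In NEG, 4 of the other hemocyte genes, Pxn, eater, NimC1 and srp, had fewer counts per Hml count in irradiated than in unirradiated libraries. All these ratios share Hml as denominator, and mean Hml in NEG was 47.1 CPM at -IR and 199.6 CPM at IR+48h. A gene at a steady level therefore has a lower ratio at IR+48h. Pxn per Hml count was 0.340 and 0.316 at IR+24h and 0.306 and 0.320 at IR+48h, against 0.638 and 0.746 at -IR. For eater the ratio was 0.0322 and 0.0361 at IR+24h and 0.0235 and 0.0180 at IR+48h, against 0.0630 and 0.154 at -IR. For NimC1 it was 0.0274 and 0.0180 at IR+24h and 0.0267 and 0.0408 at IR+48h, against 0.0686 and 0.134 at -IR. In these 3 genes every irradiated NEG library was below every unirradiated one. The srp ratio did the same, at 0.0437 to 0.105 in the irradiated libraries and 0.157 and 0.211 at -IR. For He the ratio at IR+24h, 0.0403 and 0.0680, overlapped that at -IR, 0.0551 and 0.0732, and at IR+48h it was 0.0286 and 0.0272. The crq ratio overlapped as well. With 2 libraries against 2, the smallest two-sided p of an exact permutation test is 0.333, and none was run on these ratios. Mean CPM in NEG at -IR and IR+48h was 33.5 and 62.5 for Pxn and 4.24 and 6.73 for NimC1. It was 9.10 and 12.1 for srp, and 5.87 and 4.14 for eater. At IR+24h the means were 36.2 CPM for Pxn, 2.73 for NimC1, 6.27 for srp and 3.58 for eater. The share of all genes lower relative to Hml in every irradiated NEG library was not computed, so these ratios are a description only.

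The GATA factor gene srp had a log2 fold change of -1.44 in POS at IR+24h against -IR (SE 0.518, adjusted p = 0.152) and of -1.29 at IR+48h (SE 0.513, adjusted p = 0.264), lower in 4 of 4 library pairs each time. In NEG it was 12.1 ± 1.61 CPM at IR+48h and 9.10 ± 6.03 CPM at -IR (SD, n = 2 each). The difference between the IR+48h changes of srp in POS and NEG was -1.66 (SE 0.718, adjusted p near 1). None of the 7 genes passed a test of the difference between the POS and NEG changes at either time, by edgeR, DESeq2 or limma voom. At an unadjusted p under 0.05 there were 0 at IR+24h and 3 at IR+48h, Pxn, srp and He. Of the 10617 tested genes, 353 and 350 had such an unadjusted p at IR+24h and IR+48h. By the edgeR adjusted p, 0 and 0.0188% of all tested genes passed.

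Levels were compared between genes per kilobase of exon. The median over the 6 NEG libraries was 9.79 CPM per kb for Hml, 8.74 for Pxn, 7.47 for He and 5.27 for crq, and 1.57 for srp, 1.36 for NimC1 and 1.26 for eater. The ranges over NEG libraries of neighbors in this order overlapped, except that those of crq and srp were apart. In POS the order began with crq, at 4.38 CPM per kb, and srp, at 0.777 CPM per kb, and the other 5 were at 0.048 to 0.179 CPM per kb.

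The Nimrod family contains He's neighbors NimA, the secreted NimB proteins and the NimC receptors, several of them phagocytic receptors of hemocytes, and drpr, the receptor with which phagocytes and epithelial cells take up dying cells. Of the 10 listed genes of this group outside the 7, 7 were tested. Over the mean of the time points 3 were lower in POS, beside 4.46% of all tested genes. They were NimB1 (log2 fold change -6.56, adjusted p = 0.0013), NimB4 (-6.84, adjusted p = 0.00144) and NimB5 (-4.11, adjusted p = 0.00664). NimB4 was at 0 to 0.310 CPM in POS and 0.830 to 7.05 CPM in NEG, without overlap. Over all POS libraries NimB1, NimB4 and NimB5 had 3, 6 and 9 counts. These genes passed the filter through their NEG counts, and their fitted fold changes rest in part on zeros and are no bounds. NimB5 lost its call without NEG -IR replicate 2 (adjusted p = 0.0522). In the annotation, exons of NimB5 lie opposite 11.6% of the exon length of He.

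NimA ran the other way and did not pass (log2 fold change 1.97, SE 0.607, adjusted p = 0.0730). It had 3.70 and 4.09 CPM in POS at IR+24h, against 0.801 and 1.04 CPM in NEG, and 0.163 and 0.620 CPM in POS -IR, against 0.242 and 0.073 CPM in NEG -IR. The efferocytosis receptor gene drpr was even between the pools, at 111.9 to 151.8 CPM in POS and 100.3 to 152.2 CPM in NEG (log2 fold change 0.05, SE 0.103, adjusted p = 0.828). NimB3, NimC3 and NimC4 did not pass the filter on low counts, and NimC4 had no count in any library.

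**Figure D4:**
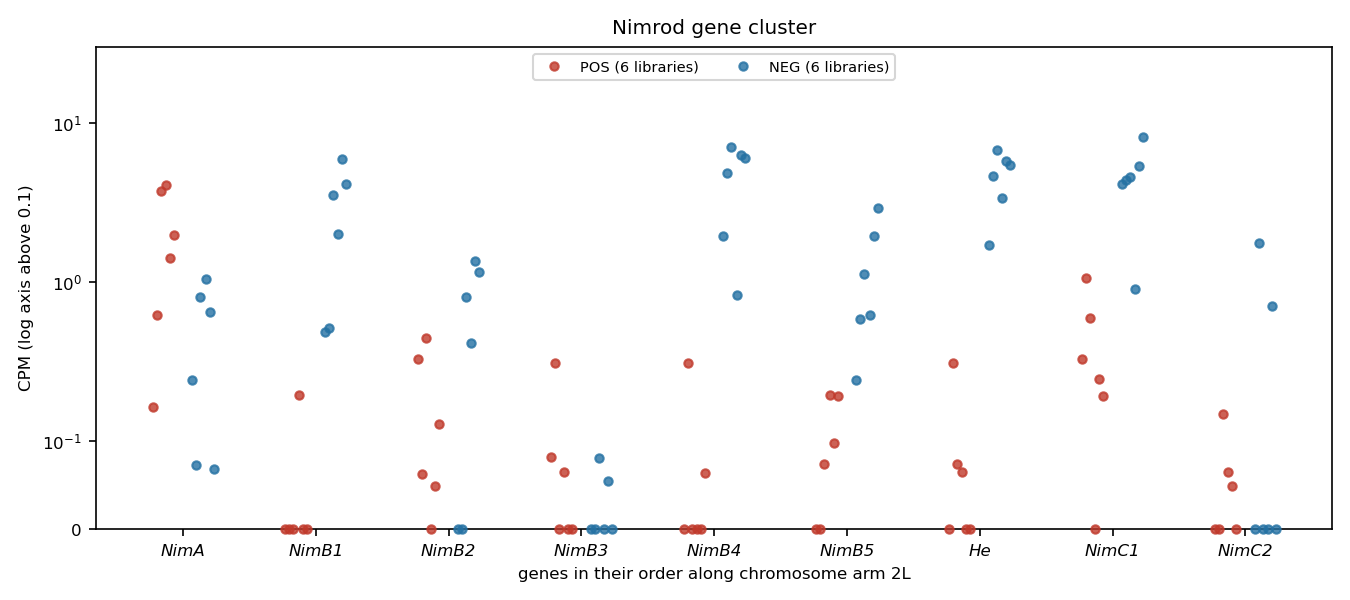
CPM (vertical axis, logarithmic above 0.1) of the Nimrod cluster genes in their order along chromosome arm 2L, with the 6 POS libraries in red and the 6 NEG libraries in blue. NimB1, NimB4, NimB5 and He are lower in every POS library than in any NEG library, while NimA reaches 4.09 CPM in POS and 1.04 CPM in NEG. In NEG -IR replicate 1, NimB1 has 2 counts and NimB5 has 1 count, under the floor of 3 counts. For NimB5 that is 0.242 CPM, against 0.195 CPM from 3 counts in POS IR+24h replicate 2, so its separation rests on 1 count.

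Of 6 scavenger receptor genes, 1 was lower in POS over the mean of the time points, beside 4.46% of all tested genes. It was Sr-CI, a class C scavenger receptor of plasmatocytes that binds bacteria. Sr-CI was at 1.04 to 3.41 CPM in POS and 6.78 to 17.7 CPM in NEG (log2 fold change -2.37, SE 0.319, adjusted p = 0.00101). Sr-CII, Sr-CIII, Sr-CIV and the CD36-family genes pes and emp did not pass.

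Of 10 genes for matrix and secreted proteins that plasmatocytes make, among other cells, 8 were lower in POS over the mean of the time points. Of all tested genes, 4.46% were called lower there. They were Nplp2, Col4a1, vkg, SPARC, Glt, LanA, LanB2 and Ppn. Nplp2 was nearest to the hemocyte pattern, at 0 to 0.327 CPM in POS and 3.15 to 29.1 CPM in NEG (log2 fold change -8.29, SE 0.651, adjusted p = 5.04e-05). Nplp2 had 5 POS counts in all and passed the filter through its NEG counts, so the fitted value is no bound. Ppn had the weakest call (-0.74, adjusted p = 0.0489) and lost it under 3 alternatives and without any of 10 single libraries. Glt lost its call without any of 6 libraries and LanB2 without any of 3.

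The collagen IV chain genes Col4a1 and vkg, the collagen-binding gene SPARC and the matrix gene Tig rose in POS after irradiation. Of all tested genes, 4.14% and 1.27% were called higher in POS at IR+24h and IR+48h. Col4a1 had 195.4 and 134.9 CPM in POS at IR+24h and 291.4 and 250.8 CPM at IR+48h, against 9.72 and 27.2 CPM in POS -IR. Its log2 fold change in POS was 3.15 at IR+24h (SE 0.549, adjusted p = 0.00655) and 3.87 at IR+48h (SE 0.564, adjusted p = 0.0103). Col4a1 and vkg were higher in both irradiated POS groups than in any unirradiated POS library. SPARC in POS rose by 2.72 (adjusted p = 6.92e-04) and 3.49 (adjusted p = 3.01e-04) on the log2 scale, and vkg by 3.10 (adjusted p = 0.00454) and 3.79 (adjusted p = 0.00678). For SPARC the IR+48h change in POS exceeded that in NEG, by 3.71 on the log2 scale (SE 0.403, adjusted p = 0.00996). That call was lost with limma voom (adjusted p = 0.120) and without NEG IR+48h replicate 1 (adjusted p = 0.0574) or replicate 2 (adjusted p = 0.0505). Tig rose in POS by 4.98 at IR+24h (adjusted p = 6.92e-04), where it had 138.0 and 176.1 CPM in POS, against 27.5 and 13.0 CPM in NEG, and was higher in POS than in NEG (2.96, SE 0.473, adjusted p = 0.0150), a call lost without any of the 4 IR+24h libraries (adjusted p 0.0626 to 0.145). Its smaller rise at IR+48h (2.64, adjusted p = 0.0268) was lost without POS IR+48h replicate 1 (adjusted p = 0.280) or POS -IR replicate 2 (adjusted p = 0.0950) and with limma voom (adjusted p = 0.0668).

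Muscle precursor genes were read beside the collagen genes. All 6 listed, twi, zfh1, Him, htl, stumps and Mef2, were lower in POS over the mean of the time points, beside 4.46% of all tested genes. Their summed level was 66.7 to 321.1 CPM in POS and 644.9 to 2015 CPM in NEG. The call of Mef2 was lost without any of 6 single libraries (adjusted p 0.0512 to 0.0653). The FGF receptor gene htl had 16.5 and 21.6 CPM in POS at IR+24h and 41.4 and 37.8 CPM at IR+48h, against 2.78 and 4.16 CPM in POS -IR. It rose in POS by 3.49 on the log2 scale at IR+48h (SE 0.426, adjusted p = 0.00308), as did stumps and twi. With limma voom none of the 3 was called there (adjusted p = 0.0533 for htl, 0.0600 for stumps and 0.187 for twi). The call of stumps was also lost without either POS IR+48h library (adjusted p = 0.0655 and 0.0614) and that of twi without any of 8 single libraries (adjusted p 0.0514 to 0.186). The part of muscle precursors in the matrix values was not tested.

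The crystal cell genes PPO1 and PPO2, which encode prophenoloxidases, were lower in POS than in NEG over the mean of the time points, and lz, which encodes the crystal cell Runx factor, was not called. PPO1 had 0 to 0.082 CPM in 5 POS libraries and 47.0 CPM in POS IR+48h replicate 2, against 17.1 to 112.1 CPM in NEG. PPO2 had 0 to 0.518 CPM in the same 5 libraries and 60.2 CPM in POS IR+48h replicate 2, against 8.71 to 182.7 CPM in NEG. In that library Hml was at 2.17 CPM, the highest of the POS libraries, and He and eater were at 0. Fits of PPO1 and PPO2 rest in part on the zeros in the other 5 POS libraries, so their fold changes are no bounds. The log2 fold changes were -7.42 for PPO1 (SE 1.371, adjusted p = 0.00841) and -6.66 for PPO2 (SE 1.362, adjusted p = 0.0143). Without POS IR+48h replicate 2 they were -11.2 (adjusted p = 1.21e-06) and -10.6 (adjusted p = 2.99e-05), and PPO2 lost its call without POS IR+24h replicate 2 (adjusted p = 0.0547).

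In NEG, PPO1 had 108.2 and 112.1 CPM at IR+48h, against 17.9 and 17.1 CPM at -IR, and PPO2 had 135.9 and 182.7 CPM, against 8.71 and 21.5 CPM. Both IR+48h libraries were above both -IR libraries, as for Hml, and neither gene passed (adjusted p = 0.508 and 0.449). All groups share 1 estimate of the spread in the fit, and PPO1 passed when either POS IR+48h library was left out, with a log2 fold change of 2.66 and an adjusted p of 0.00675 without replicate 1 and 0.00908 without replicate 2.

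Of the lamellocyte genes PPO3, atilla and ItgaPS4, 0 of 3 passed over the mean of the time points by edgeR, DESeq2 or limma voom, and 2 had an unadjusted p under 0.05. Among 6 tested genes for blood transcription and growth factors, ush, gcm, Pvr, Pvf1, Pvf2 and Pvf3, 0 passed between POS and NEG by edgeR or limma voom, 1 did by DESeq2, and 2 had an unadjusted p under 0.05. Of the 10617 tested genes, 2261 had an unadjusted p under 0.05 over the mean of the time points. Pvf2, a ligand of the PDGF/VEGF-related receptor that guides and sustains hemocytes, rose at IR+24h in POS by 1.86 on the log2 scale (SE 0.269, adjusted p = 0.00224) and in NEG by 1.31 (SE 0.268, adjusted p = 0.0270). The call of Pvf2 in NEG was lost without any of 6 single libraries (adjusted p 0.0516 to 0.175). It had 107.7 and 100.7 CPM in POS at IR+24h, against 21.6 and 35.7 CPM in POS -IR, and 79.2 and 79.8 CPM in NEG at IR+24h, against 23.7 and 39.3 CPM in NEG -IR. Its receptor gene Pvr had 90.1 to 207.5 CPM in POS and 75.5 to 134.7 CPM in NEG and was not called by edgeR in any of these comparisons.

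Fat body shares Serpent with blood, so genes of fat body were read as well. Of 7, Lsp2 and Lsp1alpha were lower in POS over the mean of the time points, and Lsp1alpha lost its call without any of 8 single libraries. The summed level of the list was 8.35 to 43.3 CPM in POS and 12.9 to 64.8 CPM in NEG. Of 5 tracheal genes, trh was lower and Gasp higher in POS by the same contrast. Of 4 neuron and glia genes, moody was higher in POS and lost its call without any of 8 single libraries. By this contrast 4.46% of all tested genes were called lower in POS and 3.44% higher.

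**Figure D5:**
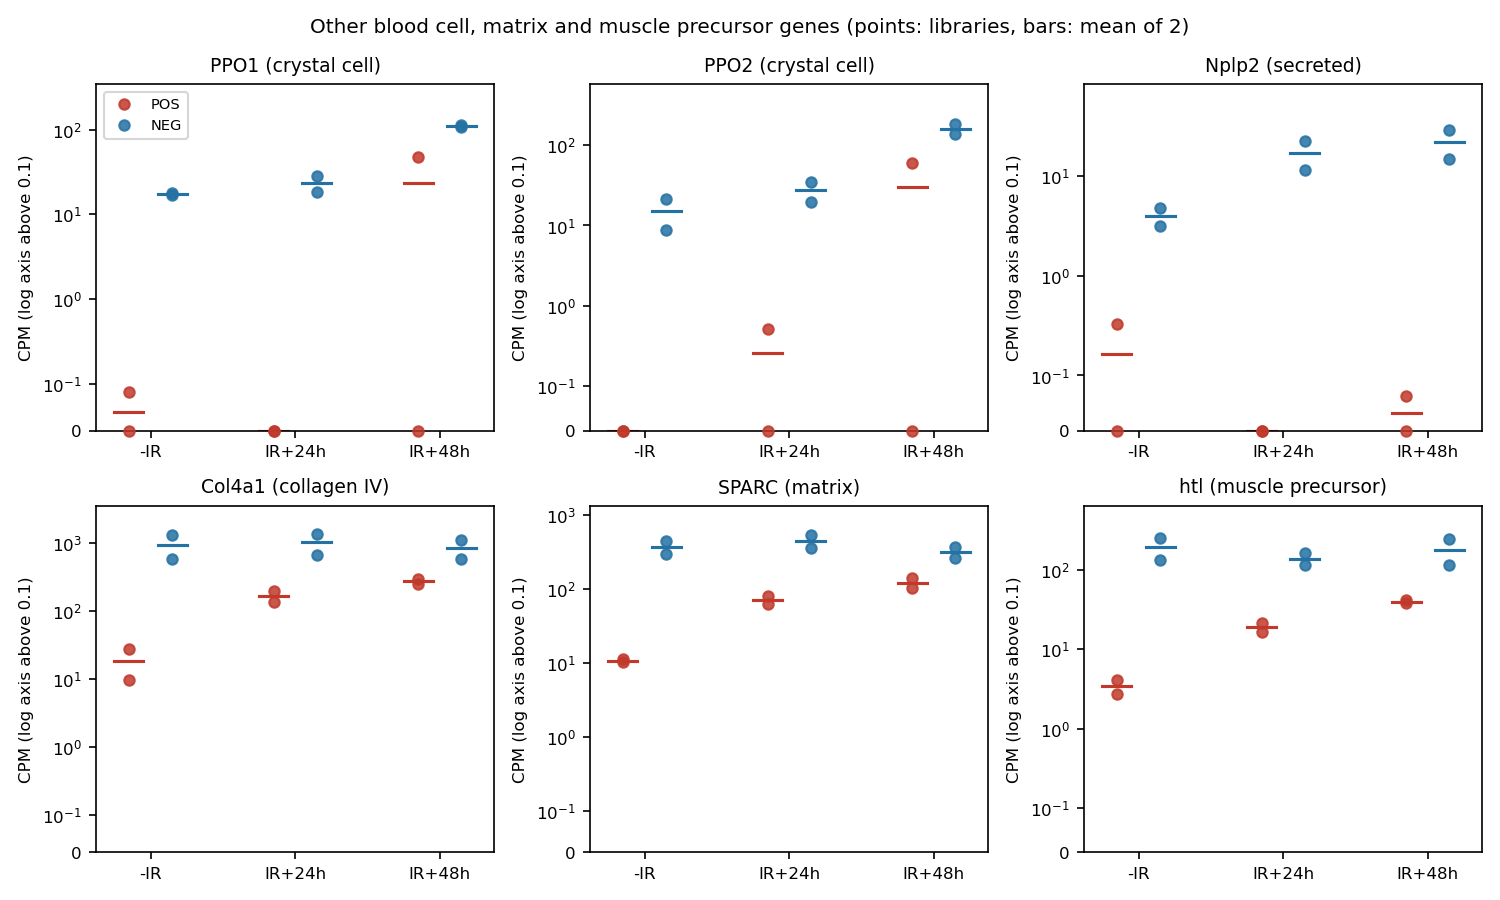
CPM (vertical axis, logarithmic above 0.1) of PPO1 and PPO2 (crystal cell), Nplp2, Col4a1 and SPARC (secreted and matrix proteins) and htl (muscle precursor) by time point, POS in red left of NEG in blue, with points for libraries and bars for the mean of 2. PPO1 and PPO2 are near 0 in POS except for 47.0 and 60.2 CPM in 1 library at IR+48h, and Col4a1, SPARC and htl are higher in POS after irradiation.

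Across the 12 libraries, the patterns of He, Pxn, eater and NimC1 resembled that of Hml, with Pearson r of 0.979, 0.914, 0.900 and 0.891 on log2(CPM + 0.5). For srp r was 0.496 and for crq 0.240. Among all other tested genes, those most like the mean of the 7 were Tep1 (r = 0.975), which encodes a thioester protein, NimB4 (0.973), CG9372, CG5397, Sr-CI, CG4259, Prip, Raf, Nplp2 and CG14527 (0.953). Those most like Hml alone were Nplp2 (0.967), NimB4, Raf, Tep1 and alphaTub85E (0.945). The values describe 12 libraries that fall into a POS and a NEG cluster and share their scaling, so they largely reflect the gap between pools. Within the 6 NEG libraries, r with Hml was 0.894 for He, 0.876 for Pxn, 0.424 for eater and 0.581 for NimC1. It was 0.643 for srp and -0.651 for crq. Within the 6 POS libraries it was 0.109, 0.092, -0.177 and -0.093 for He, Pxn, eater and NimC1, and -0.519 and -0.381 for srp and crq. Tep1 was at 0 to 0.682 CPM in POS and 5.81 to 18.1 CPM in NEG, without overlap.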

How the data were processed

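The authors aligned and counted reads with STAR 2.6.0a on BDGP6 (per the labels) and deposited raw counts per gene, not normalized. Whether counting used strand is not given in the sources used here. The table has 17753 genes and 1 column that matches no sample, which was not used. The 7 genes, the comparison lists and the tests were chosen with earlier results of these data known. Groups came from the labels. Counts of 12 libraries were fitted in edgeR 4.0.16 (R 4.3.3) as 6 group means, with TMM scaling and filterByExpr (10617 genes kept). Quasi-likelihood F tests were two-sided, adjusted by Benjamini-Hochberg over all genes, with a threshold of 0.05. Each p-value measures the spread between pooled libraries. The floor was 3 counts. Library totals of 4211088 to 19940040 set the precision of the exact intervals of percentages and count ratios, which cover counting error only. Intervals of fold changes come from the SE of the edgeR fit and include the spread between libraries.

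Named were all 7 genes, the listed genes of other cell types, and the genes most correlated with them on log2(CPM + 0.5). Alternatives were scaling by library size or DESeq2 size factors, no filter, 1 CPM in all 12 libraries, DESeq2 1.42.0, limma 3.58.1 voom, a replicate block, and leaving out each library. Same-numbered POS and NEG libraries deviated together at each time point (r = 0.522, 0.145 and 0.190 over genes), and a replicate block within time and a crossed one were added after the data were seen. The code was tested on simulated data. Identifiers, positions and exon lengths came from BDGP6.54, and all 74 listed genes matched. Figures used matplotlib 3.10.9.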

Additional observations from a re-analysis of the deposited data

Results flagged for a closer look

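SPARC, which encodes a collagen-binding matrix protein, changed by a different amount in POS and NEG at IR+48h: the POS change minus the NEG change was 3.71 on the log2 scale (SE 0.403, edgeR adjusted p = 0.00996), with 139.3 and 101.8 CPM in POS IR+48h, against 10.2 and 11.2 CPM in POS -IR. The call was lost with limma voom (adjusted p = 0.120) and without NEG IR+48h replicate 1 (0.0574) or replicate 2 (0.0505). NimC1 was lower at IR+48h than at -IR in every POS library pair and higher in every NEG pair, and the difference of the changes was -2.31 (SE 1.494), on 8 and 21 counts in POS. The test of the difference itself did not pass for NimC1 (edgeR adjusted p near 1).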

How the results depend on the processing

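Over the mean of the 3 time points, Hml, Pxn, He, eater and NimC1 were called lower in POS under every alternative that kept them, and 5 or 6 genes when each library was left out in turn. The filter of 1 CPM in all 12 libraries removed these 5. With no filter the edgeR adjusted p of Hml was 1.39e-251, against 1.02e-05 with DESeq2 size factors. Calls with no filter are therefore to be read with caution. At -IR the 2 calls became 5 with no filter, 4 with DESeq2, 0 with limma voom and 5 with the replicate block within time, and 2 to 4 without single libraries. At IR+24h the 3 calls became 5 with no filter and 0 with voom, 0 to 3 without single libraries. At IR+48h the 2 calls became 5 with no filter, 4 with DESeq2 and 5 with the block within time, 1 to 3 without single libraries. For irradiation in POS, no filter called 2 genes at IR+24h and 1 at IR+48h, DESeq2 1 at IR+48h, and leaving out libraries 0 to 1. In NEG no filter called 1 gene at each time, and 1 for the difference of the IR+48h changes. For srp at -IR the log2 fold change of 0.08 became -0.13 with voom and ran between -0.45 and 1.06 without single libraries. For crq at -IR it ran between -1.15 and 0.32. The causes were not tested.

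Over all genes, calls between POS and NEG (839 for the mean, 284 at -IR, 54 at IR+24h, 35 at IR+48h) became 1985, 1249, 391 and 270 with the block within time, 1332, 751, 335 and 255 with no filter, and 691, 176 and 126 at the single times with DESeq2. With library size alone 496 of 829 were higher in POS over the mean and 153 of 286 at -IR, in place of 365 of 839 and 97 of 284. The replicate block over all times lost He at IR+24h (adjusted p = 0.0674) and changed no other call of the 7. The crossed block gave 741 calls in POS and 315 in NEG at IR+24h, in place of 566 and 229, and 0 of the 7 genes. With 2 libraries a group and 7 POS counts of He in all, small changes within POS were not detectable.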
